A study of Mus musculus with 24 samples.

Results

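The messenger RNA of CD8 T cells activated for 72 h with an agonist of Toll-like receptor 7 (TLR7) was compared with that of CD8 T cells activated for the same time with an agonist of TLR2. The members are the 4 libraries that the labels name TLR7 at 72 h and the 4 they name TLR2 at 72 h, 8 of the 24 libraries of the series. All 8 come from splenocyte cultures of OT-1 mice, a line with 1 transgenic T cell receptor that recognises an ovalbumin peptide on CD8 T cells. Every culture received peptide at 2 µg/mL, with the agonist added 1 h earlier, and T cells were then isolated by immunomagnetic negative selection. The remaining 16 libraries, 4 each, are TLR7 at 24 h, TLR2 at 24 h, peptide alone (OVA) at 24 h and OVA at 72 h. The labels call the agonists only TLR7 and TLR2. The protocol lists gardiquimod (3 µg/mL) and R848 (10 µg/mL), which act on TLR7, and Pam3CSK4 (300 ng/mL), which acts on TLR2. Which TLR7 agonist was given to the sequenced cultures is not stated. Because whole splenocytes were cultured, the agonist could act on T cells and on the B cells, dendritic cells and macrophages beside them. The transgenic receptor makes the responding T cells uniform, which a polyclonal population is not. The labels give neither age nor sex of the mice, nor whether replicates are separate mice or cultures, and the p-values therefore measure a spread between samples that may be technical.

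TLR2 sits at the cell surface and senses bacterial lipoproteins, whereas TLR7 sits in endosomes and senses single-stranded RNA and imidazoquinoline drugs. Both signal through the adaptor MyD88 to NF-kB, and TLR7 signalling in dendritic cells is also known for inducing type I interferon. A CD8 T cell that meets its peptide first switches on early response genes of the T cell receptor such as those of the Nr4a and Egr families, then cytokines, then division, and it also raises inhibitory receptors such as PD-1.

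Levels are given as CPM, counts scaled to library size with TMM factors, and where 4 values stand together they are replicates 1 to 4 in order. A fold change is TLR7 over TLR2 on the log2 scale with its standard error (SE). A gene is said to have risen or fallen with the TLR7 agonist only where edgeR's adjusted p is under 0.05 over 14560 genes tested. Library totals were 10.5, 11.7, 22.2 and 25.9 M counts with the TLR7 agonist, against 23.5, 25.5, 22.8 and 27.1 M with the TLR2 agonist, so 3 counts correspond to 0.286 CPM in the shallowest of the 8 and 0.111 CPM in the deepest.

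The libraries did not all lie where their time label puts them. On the first principal component, which held 60.2% of the variance over the 24 libraries and separates 24 h from 72 h, the 4 TLR7 libraries scored -87.6, -80.5, -90.5 and -76.4. The TLR2 libraries scored -13.1, -87.8, -8.76 and -11.4. TLR2 replicates 1, 3 and 4 thus lay between the times, as did 5 libraries of other groups. Those were TLR7 24 h replicates 3 and 4, OVA 24 h replicates 1 and 3, and OVA 72 h replicate 4. Of the TLR2 libraries at 72 h, only replicate 2 lay with the TLR7 libraries at 72 h. The calls were therefore also set against TLR2 replicate 2 alone, a choice made after the data were seen, and for most named genes whose difference was smaller there that log2 fold change is given too. In the same sense, a gene is said to have kept its difference if that replicate lay outside the range of the 4 TLR7 libraries and left at least 50% of the log2 fold change with the same sign. The cause of the middle position was not tested, and its part in each result cannot be told from these libraries beyond those values.

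**Figure D1:**
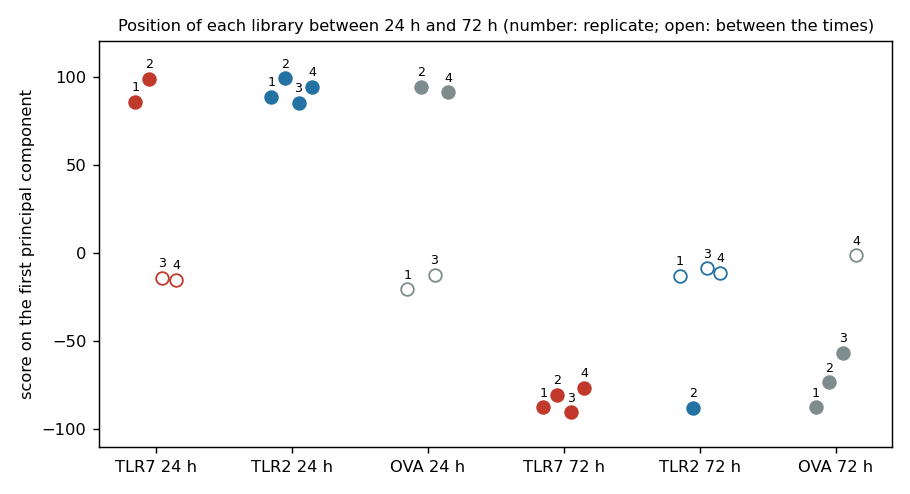
Score of each of the 24 libraries on the first principal component of log2 CPM, by group, with the replicate number above each point and open points for the 8 libraries between the times. The TLR7 libraries at 72 h sit between -90.5 and -76.4, and of the TLR2 libraries at 72 h only replicate 2 (-87.8) sits beside them.

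The labelled cell type was checked against its markers. Cd8a, a chain of the CD8 coreceptor, stood at 501, 526, 557 and 589 CPM with the TLR7 agonist, against 718, 598, 718 and 564 CPM with the TLR2 agonist. Cd4, the coreceptor of helper T cells, was at most 0.569 CPM with the TLR7 agonist and at most 1.10 CPM with the TLR2 agonist. Summed over 18 CD8 T cell genes the level was 7486, 7242, 7588 and 8143 CPM with the TLR7 agonist, against 6358, 6778, 6077 and 5816 CPM with the TLR2 agonist. The TLR7 sums were all higher, but the 2-sided exact permutation test gave p = 0.0286, the smallest that 4 against 4 libraries allow, and 0.0929 after adjustment over 13 cell types. Among the 18 genes, calls included Trbc1, a constant segment of the T cell receptor's beta chain, which rose (0.57), and Cd5, which fell. In bulk samples, fewer cells of a type and less RNA per cell cannot be told apart.

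Of the 14560 genes tested, 125 rose (0.859%) and 574 fell (3.94%) with the TLR7 agonist, 699 in all (4.8%). By at least 2-fold, 42 rose (0.288%) and 370 fell (2.54%). Among all tested genes the libraries of the groups did not overlap for 12.9% (TLR7 higher) and 10.7% (TLR7 lower), and 566 of the 699 were of that kind. The median log2 fold change of all tested genes was -0.03. Lower genes were 82.1% of the calls, 71.3% with RLE scaling and 87.2% with scaling to library size only. Against TLR2 replicate 2 alone the rises and the falls are given apart. Of the rises, 122 of 125 kept their difference (97.6%), with a median log2 fold change of 0.82 against that library and 0.81 against all 4. Of the falls, 279 of 574 did (48.6%), and their median was -0.54 against that library and -1.34 against all 4. Replicate 2 was itself among the 4 libraries that made the calls, and 119 of the rises and 447 of the falls had no overlap. For those genes its place outside the TLR7 range was fixed in advance. The shares that kept their difference are therefore descriptions and no independent check of the calls. The 4-against-1 fit itself called 0 genes with edgeR (809 at an unadjusted p under 0.05).

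The number of calls depended on single libraries. Without TLR2 replicate 1 it was 1, without TLR2 replicate 2 it was 1667, without TLR2 replicate 3 it was 70, and without TLR2 replicate 4 it was 103. It was 1 without TLR7 replicate 1, 0 without TLR7 replicate 2, 581 without TLR7 replicate 3 and 0 without TLR7 replicate 4. A model fitted to these 8 libraries alone called 3302 genes (1618 rises, 1684 falls), DESeq2 called 1521 (543 and 978), and 595 of the 699 genes entered the smaller model and all 595 were called in it. Leaving out each library in turn from that model gave 1277 to 6461 calls. Without the 5 libraries under 15 M counts, which include TLR7 replicates 1 and 2, the count was 0, with 1900 genes at an unadjusted p under 0.05.

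**Figure D2:**
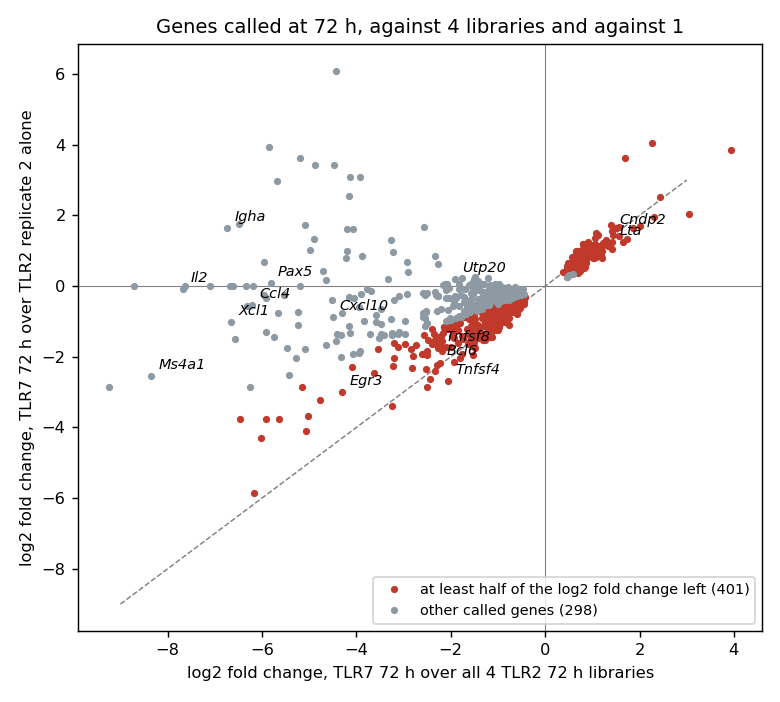
Each of the 699 called genes by its log2 fold change over all 4 TLR2 libraries at 72 h (x axis) and over TLR2 replicate 2 alone (y axis), with the dashed line marking equal values. Red points (401 genes) kept their difference by the rule in the text, and grey points (298) did not. The rises lie near the dashed line, whereas many falls lie near 0 on the y axis.

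Some early response genes of the T cell receptor fell with the TLR7 agonist. Of 28 tested, 0 rose, 9 fell and 19 did not pass (32.1% called, beside 4.8% of all tested genes), and 5 of the 9 kept their difference. The median log2 fold change was -0.56 (all genes, -0.03) and -0.21 against TLR2 replicate 2 alone. The Nr4a genes encode orphan nuclear receptors that are induced by receptor signals and known for restraining T cell function. Nr4a1 (ENSMUSG00000023034, chromosome 15, 101254000 to 101275000, GRCm38) had 26.5, 27.3, 56.1 and 31.7 CPM with the TLR7 agonist, against 83.9, 56.6, 74.7 and 77.2 CPM with the TLR2 agonist. All 4 TLR2 libraries were above all 4 TLR7 libraries, with the highest TLR7 library, replicate 3, just under TLR2 replicate 2 (log2 fold change -1.04, SE 0.25, edgeR adjusted p = 0.0255). Nr4a3 (ENSMUSG00000028341, chromosome 4, 48045200 to 48086400) had 8.54, 18.3, 38.2 and 23.7 CPM with the TLR7 agonist, against 102, 51.8, 79.4 and 96.6 CPM with the TLR2 agonist, again without overlap (log2 fold change -1.88, SE 0.38, edgeR adjusted p = 0.0154). Nr4a2 (ENSMUSG00000026826, chromosome 2, 57106800 to 57124000) had 13.3, 15.9, 29.7 and 14.5 CPM with the TLR7 agonist, against 61.9, 34.1, 71.7 and 92.4 CPM with the TLR2 agonist, without overlap (log2 fold change -1.82, SE 0.32, edgeR adjusted p = 0.0133), but against TLR2 replicate 2 alone its log2 fold change was -0.84, under the 50% mark. The promoters of these paralogs are shown because the 3 genes fell together. Each sequence is the 250 bases before the RefSeq start on GRCm38.p6, from 5′ to 3′, at chr15:101266596-101266845 (plus strand) for Nr4a1, chr2:57124004-57124253 (minus strand) for Nr4a2 and chr4:48045055-48045304 (plus strand) for Nr4a3, with capitals for TGACG on either strand, the core of the cAMP response element.
Nr4a1: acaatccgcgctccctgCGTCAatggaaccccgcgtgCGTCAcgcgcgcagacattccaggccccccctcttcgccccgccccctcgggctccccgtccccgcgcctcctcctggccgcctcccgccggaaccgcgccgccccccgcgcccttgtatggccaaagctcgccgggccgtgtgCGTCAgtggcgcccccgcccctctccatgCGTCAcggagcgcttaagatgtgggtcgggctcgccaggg
Nr4a2: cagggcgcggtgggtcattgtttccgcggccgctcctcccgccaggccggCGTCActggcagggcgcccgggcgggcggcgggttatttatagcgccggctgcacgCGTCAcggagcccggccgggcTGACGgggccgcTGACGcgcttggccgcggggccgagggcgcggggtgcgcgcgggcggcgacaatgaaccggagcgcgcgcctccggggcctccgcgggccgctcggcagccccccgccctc
Nr4a3: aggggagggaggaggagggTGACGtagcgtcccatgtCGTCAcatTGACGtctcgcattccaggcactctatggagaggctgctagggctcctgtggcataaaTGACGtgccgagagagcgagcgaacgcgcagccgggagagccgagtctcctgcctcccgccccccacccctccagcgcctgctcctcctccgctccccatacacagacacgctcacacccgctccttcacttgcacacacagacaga
Each window holds the pentamer 4 times, with no overlap between them. Of 32851 RefSeq windows of this length, 17.8% hold it at least once and 0.137% (45 windows) at least 4 times. Since the cut-off of 4 is the count in these 3 windows, that share is no test of the Nr4a genes. The full element TGACGTCA was in none of the 3 windows and in 1.55% of all windows. Other motifs searched on both strands were the Egr site GCGGGGGCG (2.57% of windows, 1 match in Nr4a1), the AP-1 site TGANTCA (6.75%, 0 matches in the 3 windows), the NF-kB site GGGANNTTC (3.23%) and the core of the interferon-stimulated response element GAAANNGAA (7.13%). The gene spans printed are rounded GENCODE M21 coordinates, whereas the windows use RefSeq starts. The Nr4a1 window lies inside the gene span printed, and the Nr4a3 window overlaps the start of its span. A match of letters is no evidence of binding.

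Egr3 (ENSMUSG00000033730, chromosome 14, 70077200 to 70082600), a zinc-finger factor of the same early response, had 0, 0, 0.269 and 0.0758 CPM with the TLR7 agonist, against 4.04, 0.918, 2.08 and 1.75 CPM with the TLR2 agonist. Every TLR2 library exceeded every TLR7 library, of which replicates 1 and 2 held no count (log2 fold change -4.30, SE 0.73, edgeR adjusted p = 0.0133). Rel, an NF-kB subunit of activated lymphocytes, had 50.7, 69, 92.5 and 53.2 CPM with the TLR7 agonist, against 237, 111, 221 and 257 CPM with the TLR2 agonist. Replicate 2 was the lowest TLR2 library, above all TLR7 libraries but under the 50% mark (log2 fold change -1.64, SE 0.35, edgeR adjusted p = 0.0183; -0.70 against replicate 2 alone). Outside the naming rule, and picked after their values were seen, the other falls of this list were Egr2 (-2.58; -0.20 against replicate 2 alone) and Egr1 (-0.57), zinc-finger factors, Spry1 (-1.96; -0.57 against replicate 2 alone), a feedback inhibitor of receptor signalling, and Cd69 (-0.90), an early activation marker. Npas4, an activity-regulated factor, had 0.0949, 0, 1.12 and 0.152 CPM with the TLR7 agonist, against 12.5, 1.45, 4.90 and 4.97 CPM with the TLR2 agonist and also fell, under the 50% mark against replicate 2 (log2 fold change -3.91, SE 0.80, edgeR adjusted p = 0.0157; -1.85 against replicate 2 alone). Rgs16, which shortens signals of G protein-coupled receptors, had 2.94, 5.12, 22.2 and 5.12 CPM with the TLR7 agonist, against 53.6, 31.9, 54 and 117 CPM with the TLR2 agonist, with no overlap and -1.78 against TLR2 replicate 2 alone (log2 fold change -2.83, SE 0.56, edgeR adjusted p = 0.0154).

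**Figure D3:**
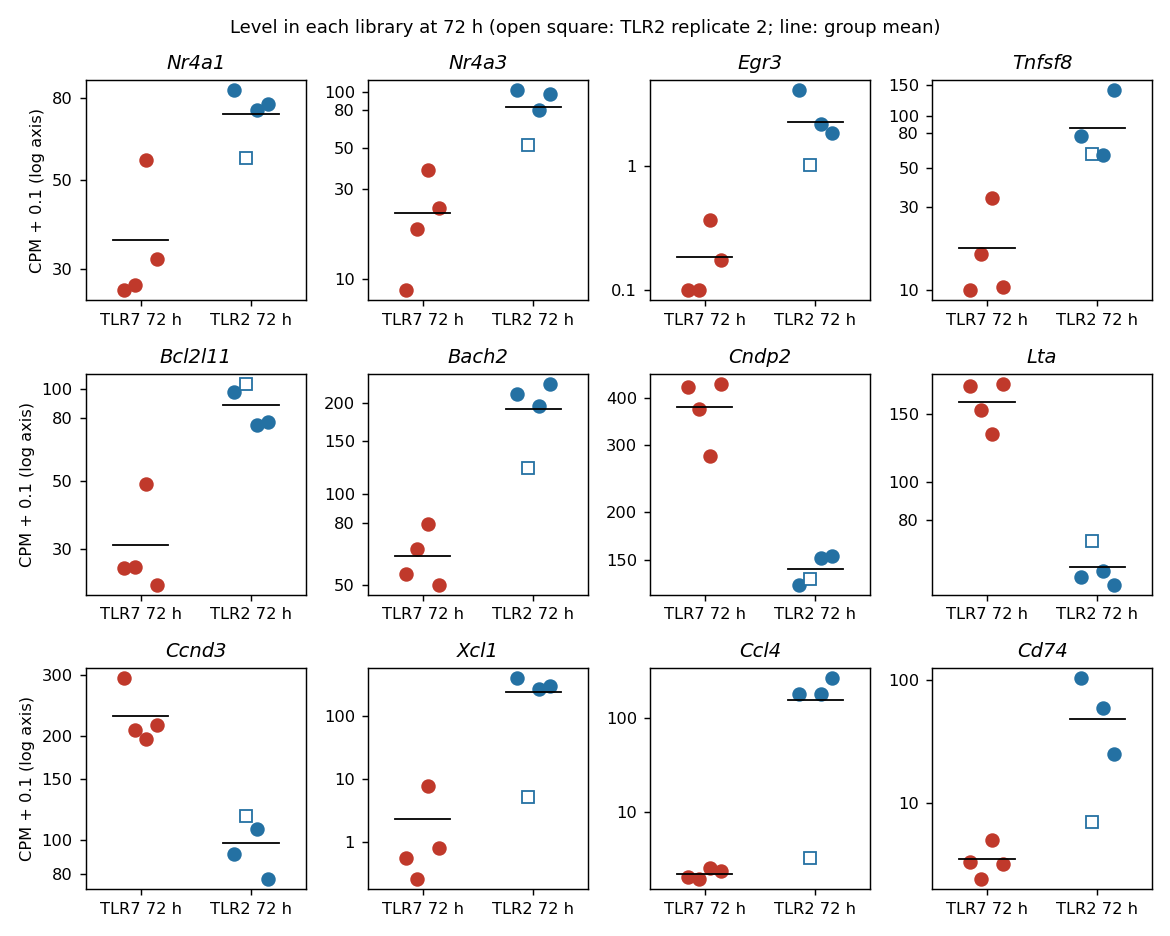
Level of 12 named genes in each library at 72 h, as CPM plus 0.1 on a log axis, TLR7 left and TLR2 right, with a line at each group mean and an open square for TLR2 replicate 2. For Cndp2, Lta, Ccnd3, Bcl2l11, Tnfsf8 and Bach2 the square lies with the other TLR2 libraries or apart from all TLR7 libraries. For Xcl1 (5.05 CPM) it lies below the highest TLR7 library. For Ccl4 (3.14 CPM) it lies just above all TLR7 libraries and far below the other TLR2 libraries.

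Costimulatory receptors and ligands were lower in part. Of 19 tested, 0 rose, 6 fell and 13 did not pass (31.6% called, beside 4.8% of all tested genes), and 4 of the 6 kept their difference. The median was -0.39, and -0.41 against TLR2 replicate 2 alone. Tnfsf8, the ligand CD30L (ENSMUSG00000028362, chromosome 4, 63831300 to 63861300), had 9.87, 16, 33.5 and 10.3 CPM with the TLR7 agonist, against 76.9, 60.3, 59.8 and 141 CPM with the TLR2 agonist. The lowest TLR2 library was above the highest TLR7 library (log2 fold change -2.27, SE 0.41, edgeR adjusted p = 0.0133). Cd226, the activating receptor DNAM-1, had 9.97, 13.3, 23.1 and 8.45 CPM with the TLR7 agonist, against 73.1, 31.2, 63.5 and 49.6 CPM with the TLR2 agonist, without overlap (log2 fold change -1.98, SE 0.40, edgeR adjusted p = 0.0154). Cd44, an adhesion receptor of activated and memory T cells, had 86.4, 101, 153 and 94.2 CPM with the TLR7 agonist, against 247, 204, 219 and 251 CPM with the TLR2 agonist, also without overlap (log2 fold change -1.08, SE 0.25, edgeR adjusted p = 0.0229). Cd40lg, through which T cells license antigen-presenting cells, had 1.90, 1.24, 3.59 and 0.720 CPM with the TLR7 agonist, against 6.29, 3.75, 10.9 and 9.10 CPM with the TLR2 agonist (log2 fold change -2.0, SE 0.52, edgeR adjusted p = 0.0347), and its difference from TLR2 replicate 2 (-0.96) was under the 50% mark. Tnfsf4, the ligand OX40L, was counted with dendritic cell markers and had 0.570, 1.98, 5.92 and 1.93 CPM with the TLR7 agonist, against 6.95, 17.7, 6.76 and 13.1 CPM with the TLR2 agonist. TLR2 replicate 2 was the highest of the 8 libraries, and the log2 fold change against it alone was -2.68 (log2 fold change -2.05, SE 0.52, edgeR adjusted p = 0.0314).

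Among inhibitory receptors the median was -0.92 (-0.62 against TLR2 replicate 2 alone). Of 18 tested, 0 rose, 3 fell and 15 did not pass (16.7% called, beside 4.8% of all tested genes). The 3 were Cd200 (-1.67; -0.70 against replicate 2 alone), a ligand that dampens myeloid cells, Cd5 (-1.35), which tunes receptor signalling, and Btla (-1.29; -0.42 against replicate 2 alone), a receptor for HVEM, and none kept its difference. Cd5 had 109, 98.8, 130.3 and 99.3 CPM with the TLR7 agonist, against 345, 108, 328 and 331 CPM with the TLR2 agonist, so that TLR2 replicate 2 lay among the TLR7 libraries (0.06 against it alone). Pdcd1, which encodes PD-1 (ENSMUSG00000026285, chromosome 1, 94038300 to 94052600), had 20.9, 34.3, 57.5 and 45.8 CPM with the TLR7 agonist, against 104, 67.5, 62.7 and 60.0 CPM with the TLR2 agonist. Every TLR7 library was below every TLR2 library, with replicate 3 at 57.5 CPM beside TLR2 replicate 4 at 60.0 CPM, and the difference did not pass (log2 fold change -0.89, SE 0.41, edgeR adjusted p = 0.177). Against TLR2 replicate 2 alone it was -0.71, and over all alternatives its adjusted p ran from 0.0248 to 0.907. Cd274, the PD-1 ligand PD-L1, had 38.5, 46.7, 56.4 and 41.2 CPM with the TLR7 agonist, against 77.7, 76.5, 66.6 and 97 CPM with the TLR2 agonist and fell without overlap (log2 fold change -0.80, SE 0.21, edgeR adjusted p = 0.0364), with -0.70 against TLR2 replicate 2 alone.

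Cytokine genes moved both ways. Of 20 tested, 2 rose, 5 fell and 13 did not pass (35% called, beside 4.8% of all tested genes, median -0.24). Lta, lymphotoxin alpha (ENSMUSG00000024402, chromosome 17, 35203200 to 35205400), had 177, 154, 133 and 179 CPM with the TLR7 agonist, against 56.9, 70.5, 59 and 54.3 CPM with the TLR2 agonist. The TLR7 libraries were all above the TLR2 libraries, among which replicate 2 did not stand apart (log2 fold change 1.42, SE 0.38, edgeR adjusted p = 0.0399). Tgfb1, a suppressive cytokine, had 99.98, 74.8, 75.5 and 91.7 CPM with the TLR7 agonist, against 56.8, 50.1, 58.6 and 48.6 CPM with the TLR2 agonist, also without overlap (log2 fold change 0.68, SE 0.16, edgeR adjusted p = 0.027). Both kept their difference against TLR2 replicate 2 alone (1.24 for Lta and 0.82 for Tgfb1), and of the 5 falls none did. Il2, the growth factor of activated T cells (ENSMUSG00000027720, chromosome 3, 37120500 to 37126000), had 0.190, 0.0826, 0.359 and 0.152 CPM with the TLR7 agonist, against 17.2, 0.230, 45.7 and 112 CPM with the TLR2 agonist. The level of TLR2 replicate 2 lay within the TLR7 range, and the other TLR2 libraries spread widely above it (log2 fold change -7.67, SE 1.81, edgeR adjusted p = 0.0254; -0.09 against replicate 2 alone). Tnfsf11, the ligand RANKL, had 0.475, 0.661, 6.46 and 0.872 CPM with the TLR7 agonist, against 38.4, 6.08, 27.2 and 13.3 CPM with the TLR2 agonist (log2 fold change -3.24, SE 0.76, edgeR adjusted p = 0.0254; -1.39 against replicate 2 alone), and Tnfsf14, the ligand LIGHT, fell by a log2 fold change of -1.72, against -0.46 with replicate 2 alone. Outside the naming rule, Il3 (-3.11; -1.35 against replicate 2 alone) and Ifng (-2.05; -0.68 against replicate 2 alone), which encodes interferon-gamma, were the remaining falls.

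The median of 12 chemokine genes was -4.87 when the 3 genes with no count in a group are set at the limit of 3 counts over that group. Of the 12, 7 fell and 0 rose (58.3% called, beside 4.8% of all tested genes). None of the 7 kept its difference against TLR2 replicate 2 alone. Xcl1, which draws XCR1-bearing dendritic cells (ENSMUSG00000026573, chromosome 1, 164932000 to 164936000), had 0.475, 0.165, 7.62 and 0.720 CPM with the TLR7 agonist, against 397, 5.05, 272 and 299 CPM with the TLR2 agonist. The TLR2 replicates between the times were at 272 CPM or more, and replicate 2 lay below the highest TLR7 library (log2 fold change -6.65, SE 1.33, edgeR adjusted p = 0.0154; -1.02 against replicate 2 alone). Ccl3, an inflammatory chemokine, had 1.14, 0.744, 2.83 and 0.948 CPM with the TLR7 agonist, against 96.3, 4.32, 185 and 278 CPM with the TLR2 agonist (log2 fold change -6.58, SE 1.39, edgeR adjusted p = 0.0169; -1.51 against replicate 2 alone). Ccl4, its close relative (ENSMUSG00000018930, chromosome 11, 83662600 to 83664700), had 1.90, 1.82, 2.38 and 2.20 CPM with the TLR7 agonist, against 177, 3.14, 177 and 263 CPM with the TLR2 agonist, so that replicate 2 was the lowest TLR2 library and still above all TLR7 libraries (log2 fold change -6.21, SE 1.37, edgeR adjusted p = 0.0196; -0.53 against replicate 2 alone). Cxcl10, an interferon-induced ligand of CXCR3 (ENSMUSG00000034855, chromosome 5, 92346600 to 92348900), had 0.760, 0.331, 0.583 and 0.379 CPM with the TLR7 agonist, against 9.44, 0.957, 16.1 and 19.3 CPM with the TLR2 agonist (log2 fold change -4.50, SE 0.77, edgeR adjusted p = 0.0133; -0.88 against replicate 2 alone). The 250 bases before its RefSeq start on GRCm38.p6, at chr5:92348890-92349139 (minus strand), are shown because they hold both the NF-kB letters and the interferon-stimulated response element letters, each once and here in capitals, which 82 of the 32851 windows do (0.25%). Since the window was picked for these letters, that share is no test of Cxcl10. The window also holds 1 match of the AP-1 site, left in lower case.
Cxcl10: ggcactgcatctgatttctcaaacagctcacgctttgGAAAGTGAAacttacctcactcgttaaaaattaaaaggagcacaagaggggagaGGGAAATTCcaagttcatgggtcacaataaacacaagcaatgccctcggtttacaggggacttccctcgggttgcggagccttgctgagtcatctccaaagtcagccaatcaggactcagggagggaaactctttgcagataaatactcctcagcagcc
Cxcl9 held 3 counts over the 4 TLR7 libraries and 177 over the 4 TLR2 libraries, a level 41.6-fold lower with the TLR7 agonist (95% counting interval 14.2 to 202). Ccl22 held 0 counts and 339 counts, which is at least 79.7-fold lower with 3 counts over the group as the floor. Both folds pool the 4 libraries of each group and do not show where TLR2 replicate 2 lay. The interval covers counting error only, not the spread between libraries.

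The 12 rises named by rule, which takes genes without overlap, each left at least 50% of the log2 fold change against TLR2 replicate 2 alone. Cndp2, a cytosolic dipeptidase (ENSMUSG00000024644, chromosome 18, 84667500 to 84685700), had 427, 375, 281 and 435 CPM with the TLR7 agonist, against 129, 134, 152 and 153 CPM with the TLR2 agonist. Replicate 2 lay among the other TLR2 libraries (log2 fold change 1.42, SE 0.26, edgeR adjusted p = 0.0133; 1.55 against replicate 2 alone). Ccnd3, the cyclin D3 of lymphocyte division (ENSMUSG00000034165, chromosome 17, 47505100 to 47599700), had 294, 208, 197 and 215 CPM with the TLR7 agonist, against 91.6, 117, 108 and 77.4 CPM with the TLR2 agonist (log2 fold change 1.21, SE 0.31, edgeR adjusted p = 0.0347). Gpsm2, which orients the mitotic spindle, had 69, 60.9, 52.2 and 77.1 CPM with the TLR7 agonist, against 15.6, 26.6, 17.4 and 18.6 CPM with the TLR2 agonist (log2 fold change 1.73, SE 0.46, edgeR adjusted p = 0.0391). Sdc3, a heparan sulfate proteoglycan, had the largest log2 fold change of the rises named (2.43), but its TLR7 level ran from 8.72 to 61.8 CPM with replicate 1 the highest, against 3.73 to 6.62 CPM with the TLR2 agonist. Nrm, a protein of the inner nuclear membrane, had 65, 58.4, 53.1 and 60.1 CPM with the TLR7 agonist, against 24.3, 27.1, 26.6 and 23.2 CPM with the TLR2 agonist, and both groups were tight (log2 fold change 1.22, SE 0.26, edgeR adjusted p = 0.0183). Mxd3, a partner of Max in the Myc network, had 8.17, 5.29, 6.01 and 8.26 CPM with the TLR7 agonist, against 2.53, 3.29, 2.30 and 2.82 CPM with the TLR2 agonist (log2 fold change 1.34, SE 0.39, edgeR adjusted p = 0.0493). In the same list of 12 genes Max itself fell (-0.94, and -0.43 against replicate 2 alone) and 10 did not pass (16.7% called, beside 4.8% of all tested genes). H2-Ke6 (1.22), Lrp12 (1.19), Snx29 (1.41), Fam69b (1.45) and Ssbp4 (1.56) were the other rises.

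Transcription factors of effector and memory cells were lower in part. Of 27 effector and exhaustion factors 0 rose and 6 fell (median -0.35), namely Nr4a1, Nr4a2, Nr4a3, Irf8 (-1.15), Eomes (-1.51), a T-box factor of memory CD8 T cells, and Tox (-1.16; -0.45 against replicate 2 alone), a factor of exhausted T cells. Eomes had 2.37, 2.73, 4.04 and 1.78 CPM with the TLR7 agonist, against 9.81, 5.05, 7.15 and 9.21 CPM with the TLR2 agonist, without overlap (log2 fold change -1.51, SE 0.36, edgeR adjusted p = 0.0264). Of 25 naive and memory genes 0 rose, 3 fell and 22 did not pass (median -0.38), and the 3 kept their difference. Calls were 22.2% of the effector and exhaustion factors and 12% of the naive and memory genes, beside 4.8% of all tested genes. Bach2, a repressor that holds T cells in a memory state (ENSMUSG00000040270, chromosome 4, 32238800 to 32586100), had 54.2, 65.3, 79.1 and 49.9 CPM with the TLR7 agonist, against 215, 122, 195 and 231 CPM with the TLR2 agonist. Replicate 2 was the lowest TLR2 library, above every TLR7 library (log2 fold change -1.62, SE 0.27, edgeR adjusted p = 0.0133; -0.93 against replicate 2 alone). Ccr7, the lymph node homing receptor, had 350.3, 329, 615 and 314 CPM with the TLR7 agonist, against 758, 628, 739.98 and 917 CPM with the TLR2 agonist, with TLR7 replicate 3 just below TLR2 replicate 2 (log2 fold change -0.92, SE 0.21, edgeR adjusted p = 0.0228). Igf1r, the receptor for insulin-like growth factor, fell too (-0.94).

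Hivep3, a zinc-finger factor of the kappa-B binding family, had 6.84, 9.67, 17.8 and 10.7 CPM with the TLR7 agonist, against 256, 30.0, 129.5 and 93.9 CPM with the TLR2 agonist (log2 fold change -3.49, SE 0.58, edgeR adjusted p = 0.0133), and -1.35 against replicate 2 alone. Bcl6, a repressor of memory and follicular T cells, had 0.949, 1.32, 4.75 and 0.682 CPM with the TLR7 agonist, against 8.09, 9.11, 9.53 and 10.5 CPM with the TLR2 agonist. TLR2 replicate 2 stood among the other TLR2 libraries, and TLR7 replicate 3 was the highest of its group (log2 fold change -2.23, SE 0.53, edgeR adjusted p = 0.0254; -2.16 against replicate 2 alone). In the list of SOCS, Pim and STAT genes, of 14 tested, 0 rose and 2 fell, Bcl6 and Stat5a (-0.91; -0.36 against replicate 2 alone), a transducer of IL-2 signals. Of 25 cytokine receptors 0 rose and 2 fell, Il18rap (-1.49), a chain of the IL-18 receptor, and Il15ra (-0.79). Il18rap had 4.18, 4.21, 13.7 and 4.02 CPM with the TLR7 agonist, against 14.4, 23, 17.3 and 19.2 CPM with the TLR2 agonist, and TLR2 replicate 2 was the highest of the 8 libraries (log2 fold change -1.49, SE 0.35, edgeR adjusted p = 0.0254). Of 24 homing receptors 0 rose and 2 fell, Ccr7 and the integrin chain Itgb1 (-0.81). Cytotoxic effectors gave 0 calls of 18 (median 0.11) and killer-lectin receptors 0 of 11 (median 0.42). Called were 14.3% of the SOCS, Pim and STAT genes, 8% of the cytokine receptors and 8.33% of the homing receptors, beside 4.8% of all tested genes. Gzma, a granzyme, had 154, 91.8, 55.3 and 71.8 CPM with the TLR7 agonist, against 10.7, 36.6, 14.9 and 11.7 CPM with the TLR2 agonist. The TLR7 libraries were all higher, yet the difference did not pass (log2 fold change 2.33, SE 0.83, edgeR adjusted p = 0.093).

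Of 31 p53 targets and apoptosis genes 1 rose, 4 fell and 26 did not pass (median -0.12), beside 125 rises and 574 falls among all tested genes. Bcl2l11, which encodes the pro-apoptotic protein BIM (ENSMUSG00000027381, chromosome 2, 128126000 to 128163000), had 25.9, 26, 48.7 and 22.8 CPM with the TLR7 agonist, against 97.2, 104, 75.9 and 77.7 CPM with the TLR2 agonist. TLR2 replicate 2 was the highest library (log2 fold change -1.52, SE 0.28, edgeR adjusted p = 0.0133; -1.70 against replicate 2 alone). Tnfrsf10b, the death receptor for TRAIL, had 10.6, 12.4, 17.5 and 11.8 CPM with the TLR7 agonist, against 19.9, 26.1, 23.8 and 25.8 CPM with the TLR2 agonist, without overlap (log2 fold change -0.87, SE 0.17, edgeR adjusted p = 0.0154), and Perp, a p53 target of the membrane, fell as well (-1.49). Gadd45b, a stress-induced gene, had 10.3, 7.60, 8.83 and 7.81 CPM with the TLR7 agonist, against 30.3, 9.30, 46.7 and 55.5 CPM with the TLR2 agonist, with replicate 2 inside the TLR7 range (log2 fold change -2.04, SE 0.47, edgeR adjusted p = 0.0233; -0.07 against replicate 2 alone). The rise was Casp8 (0.60), the initiator caspase of death receptors, named after its value was seen. Calls were 16.1% of the p53 and apoptosis list and 28% of the NF-kB list, beside 4.8% of all tested genes. Of 25 NF-kB targets and regulators 1 rose (Lta) and 6 fell (median -0.57, and -0.06 against TLR2 replicate 2 alone), and 2 of the 6 kept their difference. Cflar, an inhibitor of caspase-8 (log2 fold change -0.79, SE 0.20, edgeR adjusted p = 0.0301), was one of them. Bcl2a1d (-1.89; -0.33 against replicate 2 alone), an anti-apoptotic gene with near-identical copies, is uncertain where counting could split its reads.

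The G1/S and G2/M lists held no call at 72 h, beside 4.8% of all tested genes called. Of 45 G1/S and DNA replication genes 0 rose and 0 fell (median -0.12), and of 43 G2/M genes 0 rose and 0 fell, with 42 of the 43 positive (median 0.53). Against TLR2 replicate 2 alone the medians were 0.88 for G1/S, with 1 of 45 negative, and 0.36 for G2/M. Birc5, the mitotic survival protein survivin, had 69.9, 70.1, 65.8 and 107 CPM with the TLR7 agonist, against 43.1, 46, 46.2 and 32.6 CPM with the TLR2 agonist. All TLR7 libraries were higher, replicate 4 most, without passing (log2 fold change 0.90, SE 0.34, edgeR adjusted p = 0.107). Ccnd3 was the only call among 12 CDK inhibitors and D cyclins. Of 34 ribosome biogenesis genes all were negative, with a median of -0.79. Among them 2 fell (5.88%), Utp20 (-1.91) and Heatr1 (-1.61, and 0.04 against replicate 2 alone). Utp20, which processes ribosomal RNA, had 47, 57.1, 45.4 and 52.4 CPM with the TLR7 agonist, against 229, 45.6, 226 and 257 CPM with the TLR2 agonist, so that replicate 2 lay inside the TLR7 range (0.19 against it alone), and the list's median against replicate 2 alone was 0.40.

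In the metabolic and stress lists that follow, 0% to 12.5% of tested members were called, beside 4.8% of all tested genes. Oxidative phosphorylation (35 genes, median 0.01) and cholesterol and fatty acid synthesis (32 genes, median -0.09) held 0 calls. Of 23 glycolysis genes 1 fell, Pfkfb3 (-0.78), which raises glycolytic flux, and of 24 hypoxia genes 1 fell, Adm, the peptide adrenomedullin, which held at most 0.135 CPM with the TLR7 agonist and 0.306 to 1.88 CPM with the TLR2 agonist. Of 35 genes of ATF4 stress and amino acid supply 1 rose, Cebpb (1.20), and 29 were positive (median 0.30). Of 24 genes of ER stress and folding 0 rose and 3 fell, namely Hspa5 (-0.83), the chaperone BiP, Calr (-0.92), the chaperone calreticulin, and Dnajb11 (-0.93; -0.15 against replicate 2 alone). Hspa5 had 636, 583, 701 and 508 CPM with the TLR7 agonist, against 993, 1046, 1186 and 1089 CPM with the TLR2 agonist. Replicate 2 did not stand apart from the other TLR2 libraries (log2 fold change -0.83, SE 0.20, edgeR adjusted p = 0.0256). Calr was the only call among 19 genes of MHC class I and antigen processing (5.26%, median 0.30).

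The type I interferon list held 1 call at 72 h (1.96%) and the interferon-gamma list 6 (27.3%), beside 4.8% of all tested genes. Of 51 type I interferon response genes 0 rose, 1 fell and 50 did not pass at 72 h (median 0.13), whereas 19 rose at 24 h with a median of 1.29 (at 24 h 0.632% of all tested genes rose and 0.604% fell). The agonist difference (TLR7 minus TLR2) was lower at 72 h than at 24 h for 51 of the 51, and that change passed for 4 of them (0.385% of all tested genes), Parp14, Slfn5, Slfn8 and Ifi204. Ifi203, the fall, is an interferon-inducible gene of a family with near-identical copies and had 2.37, 1.98, 4.13 and 1.59 CPM with the TLR7 agonist, against 19.8, 7.16, 8.36 and 12.7 CPM with the TLR2 agonist, without overlap (log2 fold change -2.24, SE 0.46, edgeR adjusted p = 0.0162). Of 22 interferon-gamma response genes 0 rose and 6 fell at 72 h (median -0.18), against 5 rises at 24 h (median 0.61). Irf8, a factor of myeloid and activated lymphoid cells, had 68.7, 64.3, 85.2 and 70.3 CPM with the TLR7 agonist, against 197, 91.9, 180.3 and 169.9 CPM with the TLR2 agonist and dropped under the 50% mark against replicate 2 alone (log2 fold change -1.15, SE 0.25, edgeR adjusted p = 0.0183; -0.30). Iigp1, an interferon-induced GTPase with similar copies, had 3.23, 2.89, 2.38 and 3.11 CPM with the TLR7 agonist, against 15, 3.21, 12.2 and 19.2 CPM with the TLR2 agonist, with replicate 2 inside the TLR7 range (log2 fold change -2.10; -0.11 against replicate 2 alone). The remaining falls were Ciita, Cd274, Gbp5 (-1.10; -0.31 against replicate 2 alone) and Irf1 (-0.60).

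**Figure D4:**
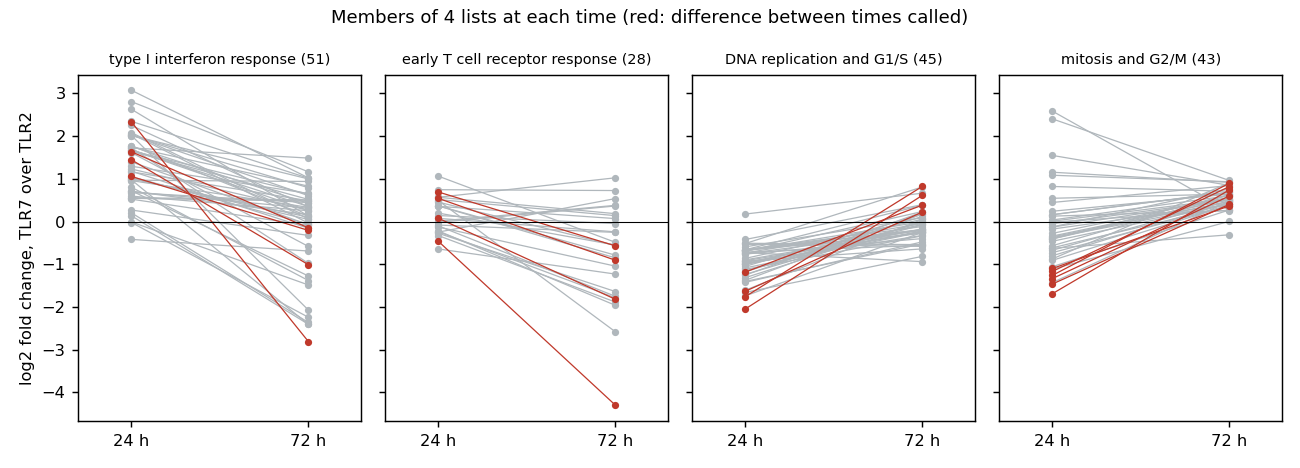
Log2 fold change of TLR7 over TLR2 at 24 h and at 72 h for the tested members of 4 lists, 1 line per gene, in red where the difference between the times passed (4, 4, 4 and 6 genes from left to right). The interferon genes go down from 24 h to 72 h, most G1/S genes and G2/M genes go up.

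The agonist difference itself changed between 24 h and 72 h for 120 genes, of which it became higher for 64 (0.44%) and lower for 56 (0.385%). The comparisons at the 2 times share no library. TLR7 24 h replicates 3 and 4 and TLR2 72 h replicates 1, 3 and 4 lay between the times. Their part in these changes was not tested. The 5 named by rule as higher were Spc24, Spc25, Nuf2, Birc5 and Stmn1. At 24 h Birc5 had 11.1, 11.6, 48.0 and 25.9 CPM with the TLR7 agonist. With the TLR2 agonist at 24 h it had 56.8, 62.7, 61.7 and 51.1 CPM. Spc24, a subunit of the NDC80 complex that ties chromosomes to microtubules, differed by -1.12 at 24 h (edgeR adjusted p = 0.045) and by 0.95 at 72 h, a change of 2.06 (SE 0.38, edgeR adjusted p = 0.0224). At 24 h it had 6.77, 6.68, 14.9 and 6.52 CPM with the TLR7 agonist, against 19.8, 18.8, 22.6 and 14.7 CPM with the TLR2 agonist. At 72 h it had 24, 21.5, 15.9 and 26.5 CPM with the TLR7 agonist, against 13.8, 11.1, 12.1 and 8.59 CPM with the TLR2 agonist. Its partners Spc25 and Nuf2 changed by 1.99 (SE 0.44, edgeR adjusted p = 0.0393) and 1.93 (SE 0.42, edgeR adjusted p = 0.0393), Birc5 by 2.16 (SE 0.48, edgeR adjusted p = 0.0393), and Stmn1, which destabilises microtubules, by 1.93 (SE 0.35, edgeR adjusted p = 0.0224). Of the G1/S list 10 genes fell at 24 h (median -0.96), and the change passed as higher for 4, Gins3, Rrm2, E2f8 and Mybl2. Of the G2/M list 6 fell at 24 h, and it passed for 6, Cdk1, Mad2l1, Birc5, Nuf2, Spc25 and Pbk.

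Among the genes named by rule whose difference became lower, Cxcl10 had the largest change, with 0.51 at 24 h (edgeR adjusted p = 0.62) and a change of -5.01 (SE 0.96, edgeR adjusted p = 0.0254). Rgs16 changed by -3.63 (SE 0.75, edgeR adjusted p = 0.0358) and Tnfsf8 by -3.13 (SE 0.56, edgeR adjusted p = 0.022), neither of which had passed at 24 h. Ahr, the aryl hydrocarbon receptor, had 2.75, 2.73, 4.04 and 1.59 CPM with the TLR7 agonist, against 7.40, 6.81, 13.4 and 15.5 CPM with the TLR2 agonist at 72 h and changed by -2.38 (SE 0.57, edgeR adjusted p = 0.0492). Cdk5r1, an activator of CDK5, changed by -4.96 (SE 1.10, edgeR adjusted p = 0.0393) and held at most 0.179 CPM with the TLR7 agonist at 72 h. Of the early receptor response genes 4 passed as lower, Egr1, Egr3, Nr4a2 and Cd69. The count of 120 was 36 without the 8 libraries between the times and 0 without the 5 shallow ones. Leaving out 1 library gave 0 without TLR2 72 h replicate 4, TLR7 24 h replicate 1 or 2, or TLR7 72 h replicate 4, and 248 without TLR7 72 h replicate 3. It gave 217 without TLR7 24 h replicate 3 and 33 without TLR7 24 h replicate 4. Without TLR2 24 h replicates 1, 3 or 4 it was 13, 9 or 9, without TLR2 72 h replicates 1 or 3 it was 46 or 74, and without TLR7 72 h replicates 1 or 2 it was 25 or 15.

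Markers of other spleen cells were also tested. Of 25 B cell markers 0 rose, 13 fell and 12 did not pass (52% called, beside 4.8% of all tested genes), and only Ighm, the IgM heavy chain, kept its difference (-1.0). The median was -3.58, and 0.28 against TLR2 replicate 2 alone, where 2 markers held no count. Summed over the markers, the level was 307, 283, 412 and 332 CPM with the TLR7 agonist, against 931, 388, 773 and 597 CPM with the TLR2 agonist. TLR2 replicate 2 lay within the TLR7 range and the other TLR2 libraries above it (2-sided exact permutation p = 0.0571, 0.106 adjusted over the 13 cell types). Cd74, the invariant chain of MHC class II (ENSMUSG00000024610, chromosome 18, 60803800 to 60812700), had 3.23, 2.31, 4.93 and 3.07 CPM with the TLR7 agonist, against 104, 6.96, 59.1 and 25.2 CPM with the TLR2 agonist (log2 fold change -3.83, SE 0.71, edgeR adjusted p = 0.0143; -0.98 against replicate 2 alone). Ighd, the heavy chain of naive B cells, had 0.854, 1.49, 2.02 and 1.78 CPM with the TLR7 agonist, against 38.2, 3.33, 19.5 and 15.3 CPM with the TLR2 agonist (log2 fold change -3.58, SE 0.64, edgeR adjusted p = 0.0133; -1.02 against replicate 2 alone). H2-Aa, a chain of MHC class II, had 0.665, 0.744, 0.852 and 0.758 CPM with the TLR7 agonist, against 42.3, 1.03, 18.5 and 8.48 CPM with the TLR2 agonist (log2 fold change -4.51, SE 1.03, edgeR adjusted p = 0.0219; -0.38 against replicate 2 alone). Ms4a1, which encodes CD20, held 1 count over the TLR7 libraries and 625 over the TLR2 libraries, 441-fold lower with the TLR7 agonist (95% counting interval 79.2 to 17422), and TLR2 replicate 2 stood at 0.115 CPM.

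Pax5, the factor of B cell identity, had 0.380, 0.0826, 0.0897 and 0.0379 CPM with the TLR7 agonist, against 11.2, 0.115, 11.1 and 5.67 CPM with the TLR2 agonist (log2 fold change -5.82, SE 1.11, edgeR adjusted p = 0.0154; 0.09 against replicate 2 alone). Of 12 plasma cell genes 0 rose and 4 fell (median -2.61), among them Jchain, the joining chain of secreted antibody, with 0, 0.165, 0.0897 and 0.190 CPM with the TLR7 agonist, against 12, 0.191, 15.7 and 13.3 CPM with the TLR2 agonist (log2 fold change -6.31, SE 1.49, edgeR adjusted p = 0.0254; -0.56 against replicate 2 alone). Of 10 MHC class II genes 0 rose and 4 fell, H2-Aa, H2-Eb1, Cd74 and Ciita. Of 18 macrophage and monocyte genes 1 fell, Mpeg1 (-5.96; 0.70 against replicate 2 alone), a pore-forming protein of phagocytes, and of 15 dendritic cell genes 6 fell (median -0.92 with the 2 genes at no count set at their limit). The summed dendritic cell level was 623, 536, 807 and 509 CPM with the TLR7 agonist, against 874, 774, 858 and 1043 CPM with the TLR2 agonist, most of it Ccr7, which T cells also express. NK cell markers summed to 159.6, 97.3, 62.3 and 76.2 CPM with the TLR7 agonist, against 26.1, 44.8, 28.5 and 26 CPM with the TLR2 agonist. Most of that sum was Gzma, which CD8 T cells express (mean 93.1 of 98.9 CPM with the TLR7 agonist). Of the 10 NK markers 8 were negative (median -1.39), 0 rose and 2 fell, Ncr1 (-3.20, and -0.39 against replicate 2 alone) and Eomes (-1.51). Called were 33.3% of the plasma cell genes, 40% of the MHC class II genes and 40% of the dendritic cell genes. The share was 5.56% for macrophages and monocytes and 20% for NK cells, beside 4.8% of all tested genes. Over the 13 cell types 0 sums passed after adjustment (4 at an unadjusted exact p under 0.05), and with library size scaling alone or a pseudocount of 0.1 that was also 0. Several of these genes are also made by activated T cells, such as Cd74, Tnfsf4 and Irf4. The share of the difference in other genes that goes with these cells was not tested.

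**Figure D5:**
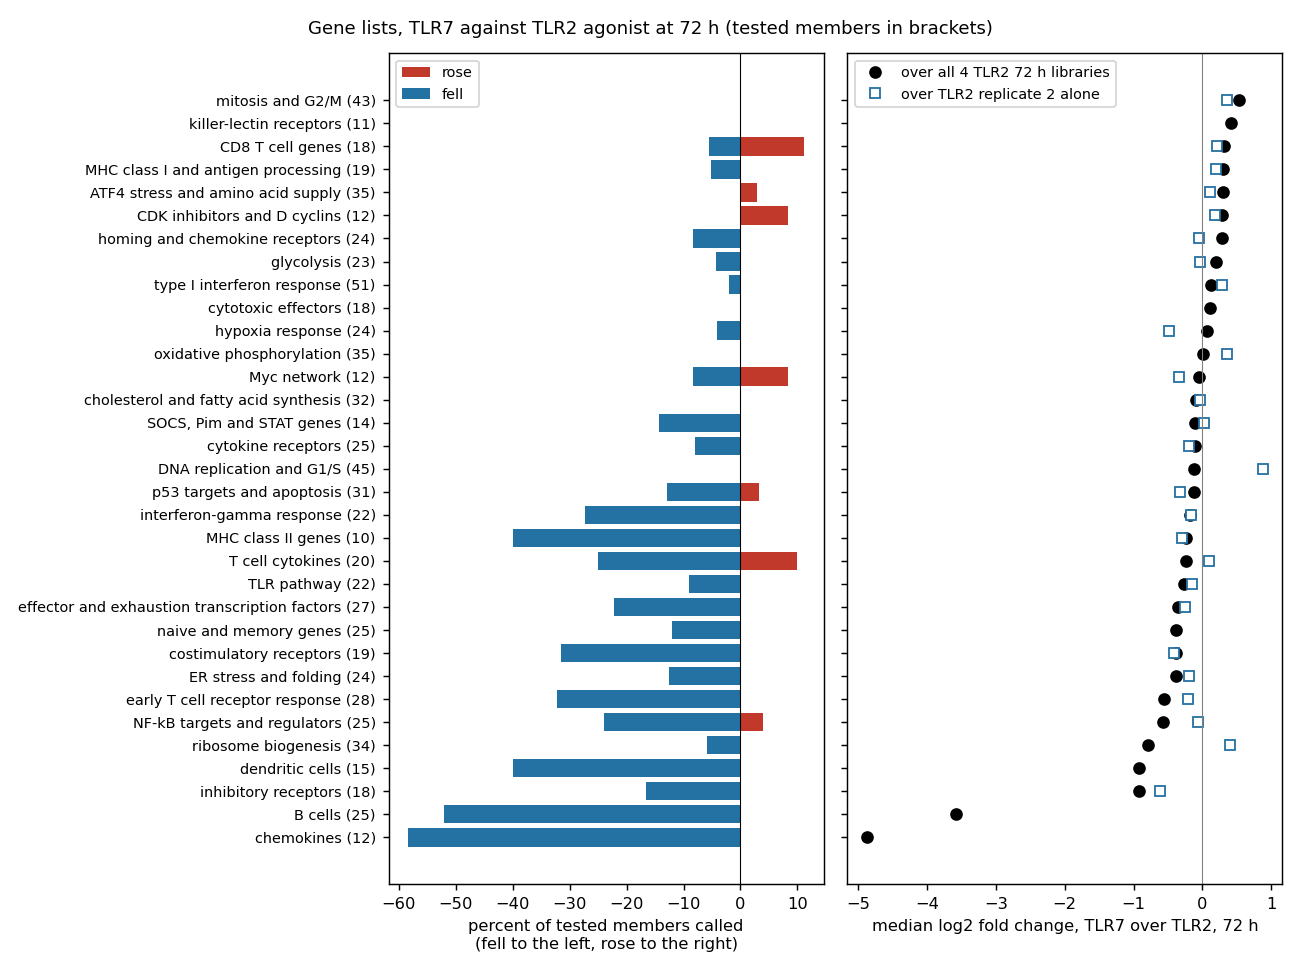
For 33 lists, the percent of tested members that fell (left, blue) or rose (right, red) with the TLR7 agonist at 72 h, and the median log2 fold change over all 4 TLR2 libraries (black) and over TLR2 replicate 2 alone (open squares, left out where a member has no count in that library). Genes with no count in a group stand at the limit of 3 counts. Chemokines (58.3% fell) and B cells (52%) have the longest bars.

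Of 22 genes of the TLR pathway 0 rose and 2 fell (9.09%, beside 4.8% of all tested genes called). Tlr7 itself (ENSMUSG00000044583, chromosome X, 167305000 to 167331000) had 1.42, 0.992, 0.762 and 0.493 CPM with the TLR7 agonist, against 6.05, 0.497, 4.46 and 6.62 CPM with the TLR2 agonist. TLR2 replicate 2 was within the TLR7 range and the other TLR2 libraries were above it (log2 fold change -2.33, SE 0.58, edgeR adjusted p = 0.0305), and against replicate 2 alone the difference was 0.85. Tlr9, the receptor for bacterial DNA, held 3 counts over the TLR7 libraries and 93 over the TLR2 libraries. Its TLR2 replicate 2 stood at 0.0765 CPM, inside the TLR7 range of 0 to 0.135 CPM (-0.76 against it alone). Tlr2 stood at 2.18 to 3.09 CPM with the TLR7 agonist and at 2.19 to 3.25 CPM with the TLR2 agonist.

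The change from 24 h to 72 h with peptide alone, measured in 8 other libraries, was set beside the agonist difference. With peptide alone 1190 genes rose (8.17%) and 1519 fell (10.4%). Of the 574 falls with the TLR7 agonist, 504 (87.8%) had a negative time change with peptide alone, against 44.8% of all tested genes, and 185 fell with time. Of those 185, 34 were among the 279 falls that kept their difference and 151 among the 295 that did not. Of the 125 rises, 99 (79.2%) had a positive time change, against 55.2% of all tested genes, and 11 rose with time. Pax5, Ighd and Utp20 fell with time with peptide alone, whereas Bcl2l11, Lta, Cndp2, Tnfsf8 and Bcl6 did not pass in either direction. The 2709 calls for peptide alone also depended on single libraries. They were 7673 without the 8 libraries between the times and 0 without the 5 shallow ones. They were 0 without OVA 24 h replicate 4 or OVA 72 h replicate 2, and 1, 3 and 118 without OVA 24 h replicate 2, OVA 72 h replicate 3 and OVA 72 h replicate 1 in that order. Without OVA 24 h replicate 1 or OVA 72 h replicate 4 they were 4350 or 4709.

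Peptide alone at 72 h places the agonists. Both comparisons with it share the 4 OVA libraries, so each gene's values are given side by side. With the TLR7 agonist 60 genes rose (0.412%) and 467 fell (3.21%) against OVA, and with the TLR2 agonist edgeR called 0 (1693 at an unadjusted p under 0.05). TLR2 replicates 1, 3 and 4 and OVA 72 h replicate 4 lay between the times, and their part in these counts was not tested. The count of 0 therefore does not show that the TLR2 agonist equals peptide alone. Egr3 lay at 1.05 to 4.82 CPM with OVA, a log2 fold change of -4.48 (edgeR adjusted p = 0.00389) for the TLR7 agonist and -0.19 (edgeR adjusted p = 0.903) for the TLR2 agonist. Nr4a3 lay at 49.4 to 158 CPM with OVA, with -2.13 (edgeR adjusted p = 0.00577) for TLR7 and -0.24 (edgeR adjusted p = 0.794) for TLR2. For Bcl2l11, at 56.3 to 183 CPM with OVA, the values were -1.93 (edgeR adjusted p = 0.00191) for TLR7 and -0.42 (edgeR adjusted p = 0.526) for TLR2. Cndp2 lay at 99.2 to 299 CPM with OVA, and was higher with the TLR7 agonist by 1.19 (edgeR adjusted p = 0.0131), with -0.23 (edgeR adjusted p = 0.712) for the TLR2 agonist. Lta lay at 20.3 to 131 CPM with OVA and gave 1.46 (edgeR adjusted p = 0.0368) for TLR7 and 0.04 (edgeR adjusted p = 0.973) for TLR2. Of the other rises named by rule, Lrp12 also passed for TLR7 (1.27, edgeR adjusted p = 0.0271). Sdc3, Gpsm2, Ssbp4, Fam69b, Snx29, Mxd3, Nrm, H2-Ke6 and Ccnd3 did not pass against OVA. Their edgeR adjusted p for TLR7 ran from 0.110 (Fam69b) to 0.786 (Sdc3). Pdcd1 lay at 123 to 203 CPM with OVA and gave -2.06 (edgeR adjusted p = 0.00999) for TLR7 and -1.17 (edgeR adjusted p = 0.334) for TLR2. Cd274 differed from OVA in neither group past the threshold, with -0.25 (edgeR adjusted p = 0.569) for TLR7 and 0.55 (edgeR adjusted p = 0.358) for TLR2.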

How the data were processed

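Messenger RNA of negatively selected T cells was sequenced with a stranded poly-A kit, per the labels' protocols. The authors deposited 1 file of unscaled expected counts for each library. The submitters' processing notes name STAR, RSEM, edgeR and GRCm38. Tool versions, tool roles, annotation release and strand setting were not given in the sources used here. Overlapping and antisense genes and near-identical copies (H2, Ifi, Bcl2a1 and immunoglobulin genes) are uncertain. Of 48526 gene IDs, 48058 had coordinates in GENCODE M21. Gene coordinates in the text are rounded and therefore approximate.

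The deposited expected counts were rounded. CPM came from them after TMM scaling of library sizes (prior count 2 on the log2 scale). With edgeR 4.0.16 (R 4.3.3, limma 3.58.1) all 24 libraries entered 1 quasi-likelihood model with a term per group, after filterByExpr (minimum count 10, minimum total 15), with 18 residual degrees of freedom and Benjamini-Hochberg adjustment over 14560 genes at 0.05. DESeq2 1.42.0 was an alternative. Marker sums (log2 of CPM plus 1) were compared with 2-sided exact permutation tests.

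The comparison, its alternatives and 42 gene lists (868 of 874 symbols in the files) were chosen with earlier results of these data known. Named were Pdcd1, up to 12 rises and 12 falls of largest log2 fold change among called genes, at 5 CPM or more in either group and without overlap, leaving out predicted genes and receptor segments, up to 4 called members of each list by p, and up to 5 genes each way for the difference between times. Further list members were picked after their values were seen. Of the genes so named the text gives a part. Some genes are not reported here. Promoter windows came from the RefSeq table of GRCm38.p6.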

Additional observations from a re-analysis of the deposited data

Results flagged for a closer look

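Of 92 groups of 4 libraries examined, over 33 genes and the marker sums, 7 had a library whose gap to the nearest other library took up more of the group's range than Dixon's 95% critical value allows. Chance gives about 1 in 20 groups. Ms4a1 stood at 0.0448 CPM in TLR7 replicate 3, the only TLR7 library with a count. TLR2 replicate 2 was the lowest of its group for Jchain (0.191 CPM), for Ccl4 (3.14 CPM) and for the erythroid marker sum (2.95 CPM), and the highest for the sum of CD4 and regulatory T cell markers (64.1 CPM). TLR7 replicate 4 was the highest of its group for Birc5 (107 CPM) and for Nuf2 (53.1 CPM).

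The agonist difference at 72 h minus that at 24 h passed edgeR's test of the change itself for the 10 genes named by rule. It was higher at 72 h for Birc5 (2.16), Spc24 (2.06), Spc25 (1.99), Nuf2 (1.93) and Stmn1 (1.93), and lower for Cxcl10 (-5.01), Cdk5r1 (-4.96), Rgs16 (-3.63), Tnfsf8 (-3.13) and Ahr (-2.38), all on the log2 scale.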

How the results depend on the processing

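Of the 699 calls at 72 h, counts within 1.5 times came from RLE scaling (593), library size only (903), a stricter low-count filter (651), none (600) and robust empirical Bayes (692). Outside that range were the fit on the 8 libraries alone (3302), DESeq2 (1521), the fits without the 3 middle TLR2 libraries (0, also 0 within the 8 libraries), without the 8 middle libraries (0) and without the 5 shallow ones (0). Leaving out 1 library gave 0 to 1667, and within the 8 libraries 1489, 6461, 1654 and 1405 (without TLR2 replicates 1 to 4) and 1277, 2008, 2867 and 1784 (without TLR7 replicates 1 to 4). Same-number correlations of residuals were 0.04, 0.02, -0.14 and 0.13, and different-number ones ran from -0.17 to 0.15. Because TLR2 replicate 2 lay apart from TLR2 replicates 1, 3 and 4, these values cannot show whether the numbers pair the samples. With the number as a block 754 genes were called, 619 of them among the 699. The block called 56 genes for the difference between times. For that difference (120 genes) no filter gave 66, the fit on the agonist groups alone 726, DESeq2 492, the fit without the 8 libraries 36, that without the shallow ones 0, and leaving out 1 library 0 to 248. For peptide alone over time (2709) no filter gave 1129, the fit on those groups alone 0, the fit without the 8 libraries 7673, that without the shallow ones 0, and leaving out 1 library 0 to 4709. Of the 88 called genes among 115 named, 8 changed sign and Ighg1 went to 0 without the 3 middle TLR2 libraries or without all 8, at Cd5 0.059, 0.054 and 0.019, Tlr7 0.85, 0.82 and 0.81, Heatr1 0.036 and 0.030, Utp20 0.19, 0.18 and 0.15, Pax5 0.093 and 0.059, Ighg1 0 and 0, Igha 1.64, 1.62 and 1.61, Ighg2b 3.44 and 3.37, and Mpeg1 0.70 and 0.69 (log2, in that order, with the value within the 8 libraries last where it also turned). These alternatives by construction set the TLR7 libraries against 1 TLR2 library; 79 of the 88 lost their call there with the same sign, and 88 of 88 did without TLR2 replicate 1, TLR7 replicates 1, 2 or 4, or the shallow libraries. The fit on the 8 libraries alone ended no call of the genes it tested. The median log2 fold change of all genes was 0.01 with RLE and -0.05 with library size only. TLR7 replicates 1 and 2 are the shallow ones of the 8, so levels below 0.286 CPM are limited by counting there.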
